A study of Mus musculus with 13 samples.

Results

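MMERVK10C is the internal region of a mouse endogenous retrovirus of the ERVK class, and was 1 of 262 retrotransposon consensus sequences (19 LINE, 237 LTR and 6 SINE sequences) to which small RNAs of male germ cells were assigned. It was taken by its name from each table of reads per 1000000 reads (RPM), with its sense and antisense values in every length class. A consensus stands for many copies scattered over the genome, so no genome position belongs to these values. The RPM of 1 consensus depends on its length and its number of copies, so levels were compared between samples and not between elements, except for a position among all LTR sequences.

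An endogenous retrovirus consists of an internal region, which carries the gag, pro and pol genes, between a pair of long terminal repeats (LTRs) that hold the promoter. MMERVK10C is among the mouse families with copies that can still be transcribed, and RLTR10C is the LTR that flanks it. PIWI-interacting RNAs (piRNAs) are germline small RNAs that are loaded on PIWI proteins and guide them to complementary transcripts. Antisense piRNAs can pair with the RNA of the retrovirus, whereas sense piRNAs can be cut from that RNA. Primary piRNAs mostly begin with U. In the amplification cycle called ping-pong, a PIWI protein cuts its target opposite the tenth base of the guide, so that the partners share a 10-nt overlap at their 5′ ends and the new piRNA tends to carry A at position 10. The piRNAs bound by the PIWI protein Piwil1 (MIWI), which is made from the pachytene stage on, are longer than those bound by Piwil2 (MILI). Pld6 (also called MitoPLD or Zucchini) is a mitochondrial protein needed for piRNA production.

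The cells came from C57BL6/J mice aged 3 to 4 weeks and were sorted by Hoechst-33342 staining into spermatogonia (SG), spermatocytes at the leptotene/zygotene (L/Z) or pachytene/diplotene (PD) stage, and round spermatids (RS). The single-library set held 1 library of SG, 2 biological replicates of L/Z (LZ), 1 of PD and 1 of RS. The technical-replicate set held 2 biological replicates each of SG (SG_T) and L/Z (LZ_T), each sequenced in a 50-bp run (technical replicate 1) and a 100-bp run (technical replicate 2), whose RPM were averaged. No label gave a genotype, allele or treatment, but the header cells of all tables of the technical-replicate set named a Pld6 knockout, a genotype that the study examined beside the wild type. Genotype, sequencing depth and run therefore cannot be told apart in any difference between the sets. Whether replicates came from separate animals was not stated, and p-values rest only on these samples. Those of limma, the test of levels used below, also draw on the spread of the other elements tested. The tables held small RNAs of retrotransposons and no cell type markers, so the sorted stages could not be checked here.

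Depth set the precision. The single-library set comprised 12541019 to 29956080 reads per library, and MMERVK10C received the equivalent of 1659 to 8164 reads of 24-33 nt in each. The libraries of the technical-replicate set comprised 852565 to 7725276 reads, and MMERVK10C received the equivalent of only 3 to 118 reads in each. Reads that matched several sequences had been divided among them, so these equivalents were rounded. The SG sequence list breaks off within the sequences read once, so its total, and the SG values computed from that list, lack an unknown number of such reads. The share of reads of 24-33 nt was 29.8% for SG, 45.2% and 39.3% for LZ, 84.5% for PD and 83.1% for RS, and 12.4% to 24.8% in the technical-replicate set.

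To see how MMERVK10C small RNAs changed over spermatogenesis, the 24-33 nt reads, the length range taken as piRNAs, were first followed in the single-library set. The total was 206 RPM for SG, 273 and 407 RPM in the LZ replicates, 223 RPM for PD and 132 RPM for RS. Both LZ libraries were above the 3 other libraries, and RS was the lowest. PD and SG lay next to each other in this order and differed by less than the LZ replicates differed from each other. LZ averaged 340 RPM ± 95.0 (SD, n = 2), and SG, PD and RS had no replicate, so the stage differences in this set carry no test.

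Behind these modest differences in the total, the strands stood in opposite order early and late. Sense reads stood at 174 RPM for SG, at 193 and 319 RPM for LZ, at 54.6 RPM for PD and at 33.8 RPM for RS. The PD and RS libraries were thus below all SG and LZ libraries on the sense strand. Antisense reads stood at 31.9 RPM for SG, at 80.0 and 88.3 RPM for LZ, at 169 RPM for PD and at 98.5 RPM for RS. On the antisense strand PD and RS were above all SG and LZ libraries. Accordingly, the antisense share was 15.5% for SG (95% Wilson interval 14.2% to 16.9%), 29.4% (28.4% to 30.4%) and 21.7% (20.8% to 22.7%) for LZ, 75.5% (74.0% to 77.1%) for PD and 74.4% (72.3% to 76.5%) for RS. The intervals of PD and RS overlapped each other and were far from those of SG and LZ. All intervals cover counting error only, not the spread between animals.

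**Figure D1:**
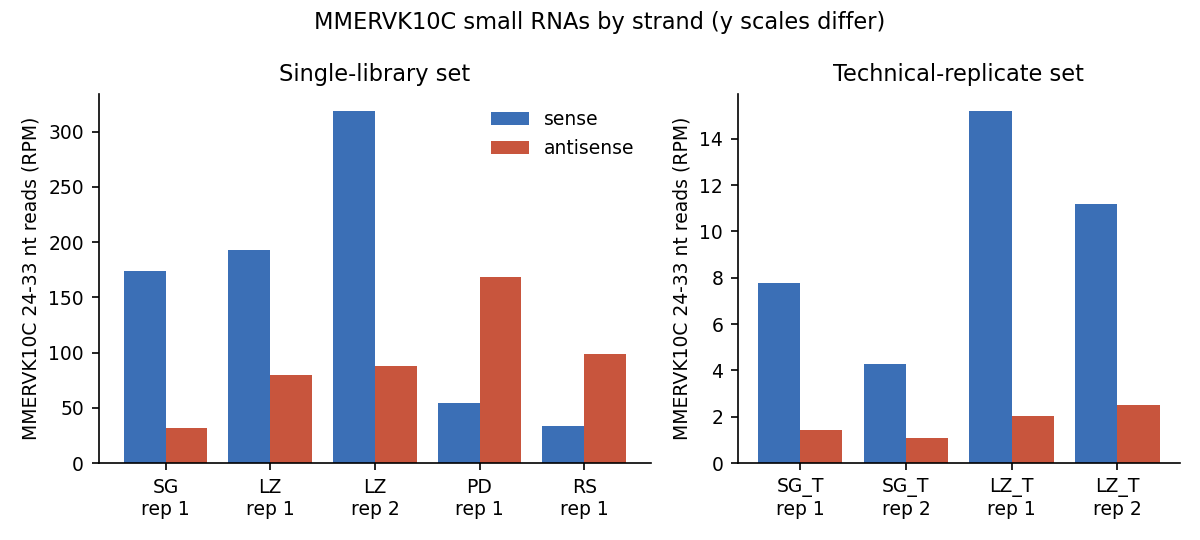
MMERVK10C 24-33 nt reads in RPM (y axis) in each biological sample (x axis), sense in blue and antisense in red, with a separate y scale for each set. Sense exceeds antisense in SG, LZ, SG_T and LZ_T, while antisense exceeds sense in PD (169 against 54.6 RPM) and RS (98.5 against 33.8 RPM).

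Next, these values were set beside those of all LTR sequences. The median LTR sequence had 0.97 RPM for SG, 1.37 and 1.78 RPM for LZ, 0.98 RPM for PD and 0.80 RPM for RS, so MMERVK10C was far above the median at every stage. It ranked 10th of 237 for SG, 11th in both LZ libraries, 8th for PD and 6th for RS. On the antisense strand its rank was 18th for SG, 12th and 15th for LZ, and 7th for PD and RS. It contributed 1.49% of all LTR RPM for SG, 2.08% and 1.94% for LZ, 1.83% for PD and 2.49% for RS.

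From SG to LZ the log2 ratio of the MMERVK10C total (with 1 RPM added, as in all ratios of this paragraph) was 0.72, and the median over the 64 LTR sequences with at least 10 RPM in either stage was 0.58. MMERVK10C stayed below a 2-fold difference, which 24 of these 64 sequences (37.5%) passed upward and 1 (1.56%) downward. From LZ to PD its log2 ratio was −0.60 against a median of −0.22 over 71 sequences, of which 22 (31%) were over 2-fold higher and 22 (31%) over 2-fold lower. From PD to RS it was −0.75 against a median of −0.74 over 62 sequences, of which 0 (0%) were over 2-fold higher and 21 (33.9%) over 2-fold lower. The totals of MMERVK10C thus moved much as those of the middle LTR sequence did. The direction of its total from LZ to PD and from PD to RS turned when the values were scaled to the summed retrotransposon RPM, to a log2 ratio of 0.34 and 0.47 without the added RPM, because that sum was itself lower at each of these steps.

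By strand it stood further from the middle. The sense log2 ratio from LZ to PD was −2.21, against a median of −0.92 over 53 LTR sequences. The antisense log2 ratio at this step was 1.00, against −0.13 over 47 sequences. From PD to RS both strands were lower by similar ratios, −0.68 for sense and −0.77 for antisense. Unlike the antisense share, these levels depend on the scaling. Without the added RPM, the sense ratio from LZ to PD was −2.23, but 0.40 when scaled to miRNA reads, and the antisense ratio at this step was 1.00, but −0.0084 when scaled to 24-33 nt reads. From PD to RS the ratios turned to 0.53 for sense and 0.45 for antisense when scaled to the summed retrotransposon RPM.

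Of the 34 LTR sequences with at least 10 RPM at each of the 4 stages, 7 (20.6%) were mostly sense in both SG and LZ and mostly antisense in both PD and RS, and 3 changed in the opposite order. MMERVK10C was among the 7, with IAPEY5_I, IAPEY4_I, IAPEY3-int, IAPEz-int, IAPEy-int and MERVL, the first 5 of which are internal regions of intracisternal A particle (IAP) retroviruses. From LZ to PD its antisense share was 50.8 percentage points higher, which ranked 2nd of 34, after IAPEY5_I at 54.3 points and before IAPEY4_I at 42.5 points. The median over the 34 was 7.84 points. The median antisense share itself was 42.3% for SG, 48.3% for LZ, 56.8% for PD and 40.8% for RS, so most LTR sequences showed no such exchange of strands. This share does not depend on how a library is scaled.

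**Figure D2:**
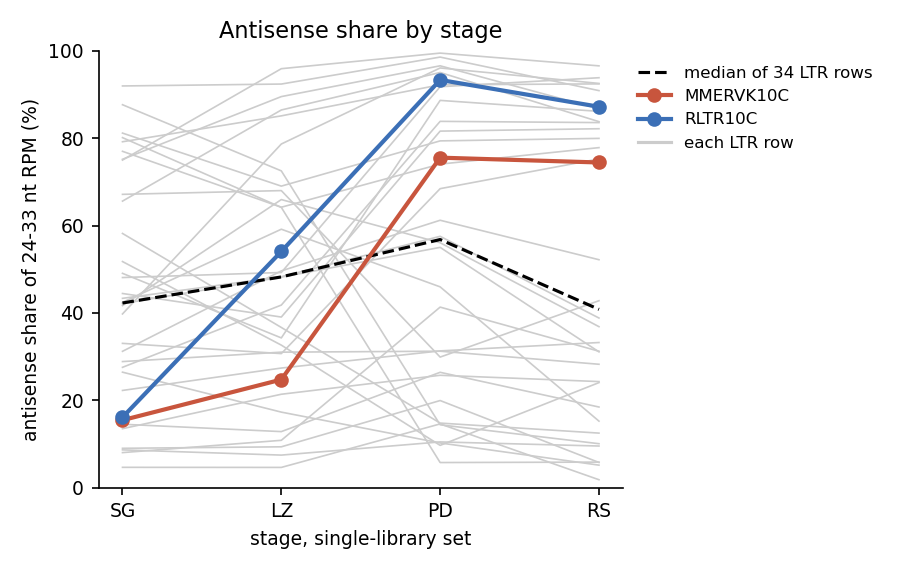
Antisense share of 24-33 nt RPM in percent (y axis) at the 4 stages of the single-library set (x axis, mean of the replicates for LZ), for each of 34 LTR sequences in grey, their median as a dashed line, MMERVK10C in red and RLTR10C in blue. MMERVK10C goes from 15.5% in SG to 75.5% in PD while the median stays between 40.8% and 56.8%.

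The length of the reads differed between the stages along with the strand. Within 24-33 nt, the share of 28-33 nt reads was 40.6% for SG, 43.0% and 39.9% for LZ, 76.3% for PD and 83.95% for RS. The shorter class was lower mainly on the sense strand. Sense reads of 24-27 nt stood at 105 RPM for SG, 112 and 190 RPM for LZ, 11.7 RPM for PD and 10.2 RPM for RS. Antisense reads of 28-33 nt stood at 14.6 RPM for SG, 36.3 and 33.98 RPM for LZ, 127 RPM for PD and 87.5 RPM for RS. In this class the PD and RS libraries were more than 2-fold above all others.

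Outside the piRNA range the strands behaved differently. Reads of 19-23 nt were mostly sense at every stage, with 20.8 RPM for SG, 43.2 and 46.8 RPM for LZ, 65.6 RPM for PD and 110 RPM for RS on that strand. Their antisense level was between 8.52 and 19.2 RPM, so the antisense share of this class was 10.9% in RS, where that of 24-33 nt reads was 74.4%. Among the 237 LTR sequences, MMERVK10C ranked 16th in 19-23 nt sense reads for SG, 7th for PD and 4th for RS. Reads of 34-48 nt were likewise mostly sense, with 2.57 RPM for SG, 7.47 and 7.30 RPM for LZ, 14.7 RPM for PD and 14.6 RPM for RS. For this class MMERVK10C ranked 10th in SG and 2nd in both PD and RS.

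The shortest reads, of 11-18 nt, lay on both strands alike. Their sense level was 401 RPM for SG, 432 and 373 RPM for LZ, 192 RPM for PD and 267 RPM for RS, and their antisense share was between 45.1% and 57.9% in these libraries. In the technical-replicate set the sense level of this class was 310 to 506 RPM, within the same order as in SG and LZ, and the antisense share was 49.6% to 51.7%. The origin of these short reads was not tested.

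**Figure D3:**
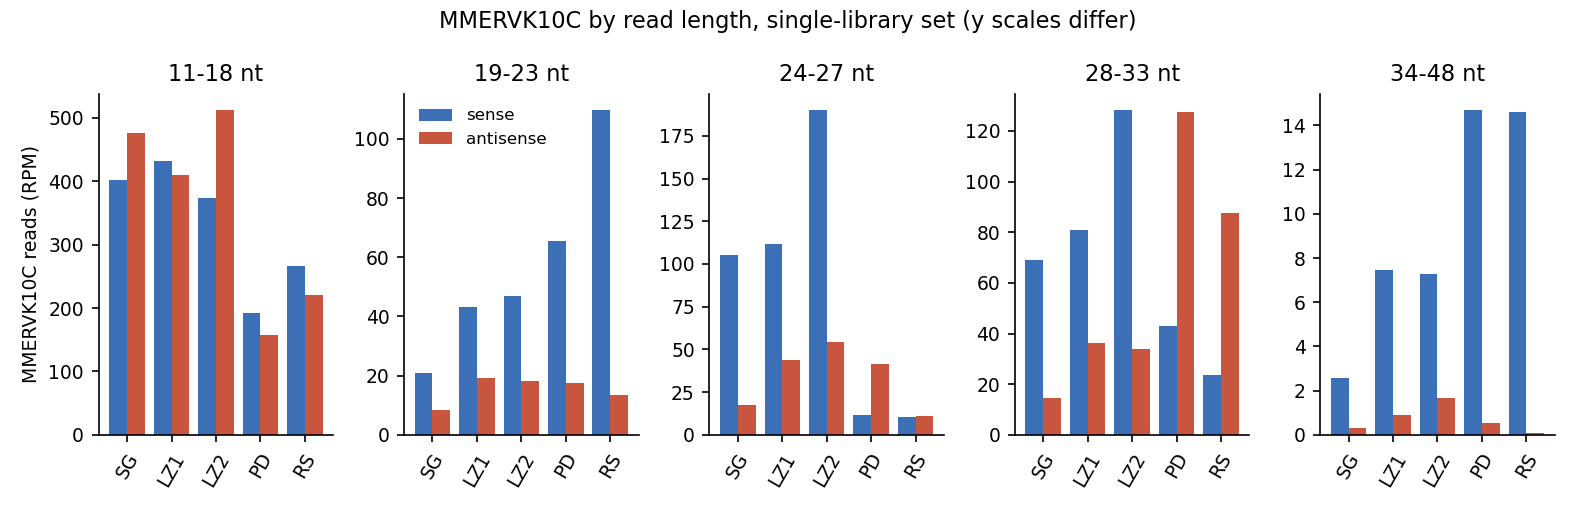
MMERVK10C reads in RPM (y axis, a scale for each panel) by length class in the 5 libraries of the single-library set (x axis), sense in blue and antisense in red. Antisense exceeds sense in PD and RS for 28-33 nt reads (127 against 42.9 RPM and 87.5 against 23.6 RPM), whereas sense exceeds antisense in every library for 19-23 nt and 34-48 nt reads.

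The technical-replicate set allowed a test of the stages, because both had 2 biological samples. The MMERVK10C total was 9.19 and 5.38 RPM in SG_T and 17.2 and 13.7 RPM in LZ_T. Both LZ_T samples were above both SG_T samples. With limma on log2(RPM + 1), a scale that understates changes of low values, MMERVK10C rose by 1.02 ± 0.36 (SE), with a Benjamini-Hochberg adjusted p of 0.0413. Of the 58 retrotransposons that averaged 1 RPM or more in these samples, 25 (43.1%) rose and 0 (0%) fell, 1 being lower at an unadjusted p under 0.05. The median log2 change of the 58 was 0.80, so MMERVK10C changed about as much as the middle element of these. Among the 24 elements with a mean of at least 10 RPM the median was 2.14, above the 1.02 of MMERVK10C. The call for MMERVK10C did not hold under 12 of 15 alternatives. Leaving out a sample ended it in each of the 4 cases (adjusted p of 0.0573 to 0.241, limma), scaling to miRNA reads gave a log2 change of 0.34 (adjusted p = 0.575, limma), and scaling to the summed retrotransposon RPM turned it to −1.57, when the median element stood at −1.50. With that last scaling 0 of 52 elements rose and 36 fell.

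The sense strand carried most of these reads. Sense values were 7.77 and 4.27 RPM in SG_T and 15.2 and 11.2 RPM in LZ_T, and sense reads rose by 1.05 ± 0.39 (SE) in log2 (limma, adjusted p = 0.0175). For this fit limma estimated infinite prior degrees of freedom, so the SE was pooled over all elements tested and is the same for each. Of 48 retrotransposons tested on this strand, 24 (50%) rose and 0 (0%) fell, nor did any fall at an unadjusted p under 0.05. Antisense values were 1.42 and 1.11 RPM in SG_T and 2.03 and 2.53 RPM in LZ_T. Their log2 difference of 0.53 ± 0.32 (SE) did not pass the test (limma, adjusted p = 0.206), where 19 of 39 elements (48.7%) rose and 0 (0%) fell, with 0 lower at an unadjusted p under 0.05. The rise of sense reads held under 6 of 14 alternatives, missed the threshold under 7 and reversed under 1. That reversal came with scaling to the summed retrotransposon RPM, which also turned the antisense strand to lower values. Under that scaling 0 of 42 elements rose and 24 fell on the sense strand, and 2 of 39 rose and 19 fell on the antisense strand.

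The antisense share was 15.5% and 20.6% in SG_T and 11.8% and 18.4% in LZ_T, a difference of −2.91 percentage points between the means (exact two-sided permutation test, p = 0.667). The groups overlapped. Their single libraries ranged from 5.29% to 33.2%, with intervals as wide as 6.15% to 79.2% where only 3 reads were behind a value. An exact permutation test of 2 against 2 samples cannot go below p = 0.33, so it could not call a difference of any size. The strand exchange seen from LZ to PD could not be looked for in this set, in which no PD or RS library was analysed here.

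To compare the sets at the stage that both held in replicate, LZ_T was set against LZ. The MMERVK10C total of 17.2 and 13.7 RPM in LZ_T stood against 273 and 407 RPM in LZ, with no overlap. MMERVK10C was lower in LZ_T by 22.0-fold in mean RPM, and its log2 change of −4.35 ± 0.44 (SE) passed the test (limma, adjusted p = 5.47e-19). So small a p-value with 2 samples per group arose because limma estimated infinite prior degrees of freedom for this fit, and the limma adjusted p ranged from 2.49e-22 to 0.00749 over the 16 alternatives run. Of the 136 retrotransposons tested, 125 (91.9%) were lower in LZ_T and 3 (2.21%), all SINEs, were higher. Elements were tested if they averaged 1 RPM or more over the LZ and LZ_T samples together. An element under 1 RPM in LZ_T could enter only through LZ, so its direction was fixed by the filter, on each strand as for the total. With no filter, 172 of 259 were lower and 3 higher. MMERVK10C was above 1 RPM in both groups. The median log2 change of the 136 was −2.87, which was 1.48 less in size than that of MMERVK10C, and 29 of the 111 LTR sequences tested had a larger decrease. This gap to the median depended on the settings. With 0.1 RPM added, MMERVK10C stood at −4.43 and the median at −4.47, and with 10 RPM added at −3.76 and −1.17. Among the 71 elements with a mean of at least 10 RPM, MMERVK10C stood at −4.35 and the median at −4.41. Among these better covered elements it thus fell about as much as the middle one.

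Both strands of MMERVK10C were lower in LZ_T. Sense reads were 15.2 and 11.2 RPM in LZ_T against 193 and 319 RPM in LZ, and changed by −4.15 in log2 with an SE of 0.45 (limma, adjusted p = 3.28e-06). On this strand 86 of 104 retrotransposons (82.7%) were lower and 4 (3.85%) higher. Antisense reads were 2.03 and 2.53 RPM in LZ_T against 80.0 and 88.3 RPM in LZ, and changed by −4.70 in log2 with an SE of 0.36 (limma, adjusted p = 2.42e-06). On this strand 98 of 105 (93.3%) were lower and 5 (4.76%) higher, and 12 of 80 LTR sequences had a larger decrease than MMERVK10C. The antisense share was 15.1% ± 4.69 (SD, n = 2) in LZ_T and 25.5% ± 5.42 (SD, n = 2) in LZ, with no overlap but at the smallest p that the design allows (exact two-sided permutation test, p = 0.33).

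The same comparison at the SG stage had 1 library on one side. SG stood at 206 RPM and SG_T at 9.19 and 5.38 RPM, 28.3-fold apart in the mean. The sense and antisense levels were 28.9-fold and 25.2-fold apart. By contrast, the 11-18 nt reads of MMERVK10C did not separate the sets, with 310 and 506 RPM in SG_T against 401 RPM in SG on the sense strand. The lower depth of the technical-replicate set and its lower share of 24-33 nt reads moved with this difference and cannot be told apart from it. With values scaled to the 24-33 nt reads of each library, the log2 change of the total in LZ_T against LZ was −3.17 (limma, adjusted p = 7.69e-09).

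**Figure D4:**
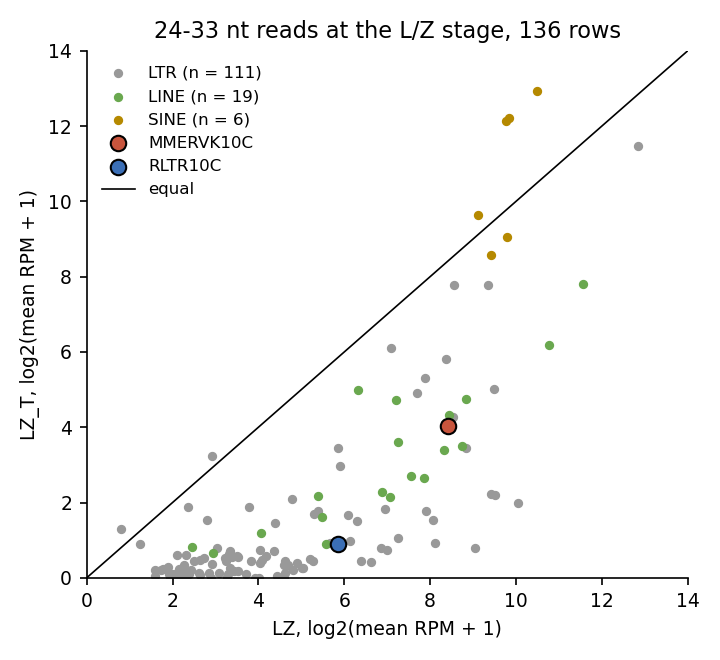
Mean 24-33 nt RPM in LZ (x axis) and LZ_T (y axis), both as log2(mean RPM + 1), for the 136 retrotransposons tested, coloured by class, with MMERVK10C in red and RLTR10C in blue and a line of equal values. MMERVK10C lies below the line with 340 RPM in LZ and 15.5 RPM in LZ_T, among 106 LTR and 19 LINE sequences that were called lower in LZ_T.

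To place MMERVK10C among its relatives, 12 sequences named MMERVK9, MMERVK10 or RLTR10 were listed, of which 10 averaged 1 RPM or more across the 9 biological samples. RLTR10D (0.88 RPM) and MMERVK10D3_LTR (0.14 RPM) were below this level. In LZ_T against LZ, 11 of the 12 could be tested and all 11 were lower in LZ_T, beside 91.9% of all retrotransposons tested. Their median log2 change was −2.97, beside −2.87 over all elements tested. Except for MMERVK10C and RLTR10B, those tested averaged under 1 RPM in LZ_T, such as RLTR10D at 0.15 RPM against 2.31 RPM in LZ. They entered only through LZ, so their direction was fixed by the filter and nothing is concluded from this count. In LZ_T against SG_T only MMERVK10C and RLTR10B could be tested. RLTR10B differed by 0.86 in log2 (limma, adjusted p = 0.113).

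RLTR10C, the flanking LTR of MMERVK10C, was mostly sense in SG and mostly antisense in PD and RS, but at 54.1% antisense on average in LZ it was not among the 7 sequences above. Its sense level was 31.3 RPM for SG, 22.3 and 29.5 RPM for LZ, 8.80 RPM for PD and 9.47 RPM for RS. Its antisense level was 6.02 RPM for SG, 37.6 and 23.4 RPM for LZ, 123 RPM for PD and 64.5 RPM for RS. The antisense share was 16.1% for SG, close to that of MMERVK10C, but already 62.8% and 44.2% for LZ, above both LZ values of the internal region. It reached 93.3% for PD and 87.2% for RS. Unlike the internal region, the LTR had its highest total in PD, at 132 RPM. In the technical-replicate set RLTR10C was at 0.65 to 1.06 RPM in all 4 samples and was lower in LZ_T than in LZ by 4.96 in log2 (limma, adjusted p = 3.85e-23).

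The other relatives varied. RLTR10 and RLTR10A, LTRs of related elements, were mostly sense throughout and much lower in PD and RS. RLTR10 stood at 29.5 RPM for SG, 49.6 RPM for LZ, 4.60 RPM for PD and 1.52 RPM for RS, and its antisense share stayed between 1.09% and 15.0%. RLTR10A stood at 32.5, 35.9, 2.33 and 0.72 RPM at the same stages. MMERVK9C_I, the internal region of another family, showed the reverse exchange, with an antisense share of 85.0% for SG, 82.6% for LZ, 17.1% for PD and 14.2% for RS at totals of 6.31 to 8.26 RPM. MMERVK9E_I had 89.4% antisense in SG and 37.2% in RS at 8.92 to 15.4 RPM. RLTR10B and RLTR10B2 went from 21.8% and 28.5% antisense for SG to 62.4% and 63.5% for RS, at totals of no more than 12.7 RPM. MMERVK10D3_I stood at 5.52 RPM for SG, 6.58 RPM for LZ, 0.15 RPM for PD and 0.40 RPM for RS, and RLTR10E, mostly antisense at each stage, at 1.26, 3.81, 7.30 and 2.00 RPM.

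Likeness of profile was measured as the root mean square difference of log2(RPM + 1) over the 9 biological samples, after each element was centred on its own mean. Among 49 LTR sequences with a mean of at least 10 RPM, the 5 most like MMERVK10C were ORR1A1 (0.50), IAPEY3-int (0.51), RLTR4_MM-int (0.53), RLTRETN_Mm (0.55) and LTRIS_Mm (0.58), in log2 units. Of these, IAPEY3-int was the one that also turned from mostly sense to mostly antisense, with 48.1% antisense for SG, 49.3% for LZ, 91.8% for PD and 93.8% for RS. ORR1A1, an LTR of the MaLR class, stayed at 28.3% to 31.3% antisense, and RLTR4_MM-int, a gammaretrovirus internal region, at 1.85% to 14.6%. A similar profile over the 9 samples, which includes the difference between the sets, therefore came with different strands. It did not always come with the same order of stages. LTRIS_Mm was highest in PD, at 42.4 RPM against 28.9 RPM in LZ, while the others were highest in LZ, as MMERVK10C was.

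Some reference elements with more reads frame these values. IAPEz-int, the internal region of the main IAP family, stood at 6982 RPM for SG, 7345 RPM for LZ, 3099 RPM for PD and 1161 RPM for RS, with 27.6%, 41.8%, 83.8% and 83.6% antisense. In LZ_T it stood at 2810 RPM, a log2 change of −1.33 from LZ (limma, adjusted p = 0.00342), while MMERVK10C changed by −4.35. IAPA_MM, another IAP sequence, changed by −1.58 (limma, adjusted p = 0.000502). L1_Mm_orf2, the second open reading frame of the LINE-1 element, changed by −3.62 (limma, adjusted p = 3.88e-14). The log2 change from SG_T to LZ_T was 2.93 for IAPEz-int (limma, adjusted p = 0.000192), 3.06 for IAPA_MM (limma, adjusted p = 0.000174) and 0.58 for L1_Mm_orf2 (limma, adjusted p = 0.174), beside 1.02 for MMERVK10C. Differences between elements were not tested.

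Individual reads of piRNA length could be seen where a stretch of the element's sequence was at hand. The study amplified a stretch that joins RLTR10C and MMERVK10C, and 24-33 nt reads that matched this window with up to 2 mismatches were collected from the sequence lists. How the stretch is oriented relative to the consensus was not stated, so its strands are called written and complementary here. The reads shown are the most frequent ones of at most 30 nt in SG and LZ and those in PD and RS. T stands for U, and capitals mark the first base and base 10.
read A, complementary strand, 92 reads in SG and LZ: TaggacgggTaaggctgtgacatga
read B, complementary strand, 62 reads in SG and LZ: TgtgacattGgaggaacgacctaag
read C, complementary strand, 54 reads in SG and LZ: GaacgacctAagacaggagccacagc
read D, complementary strand, 47 reads in SG and LZ: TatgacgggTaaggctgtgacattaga
read E, written strand, 16 reads in PD and RS: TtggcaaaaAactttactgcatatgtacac
read F, written strand, 6 reads in PD and RS: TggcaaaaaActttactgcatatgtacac
read G, complementary strand, 4 reads in PD and RS: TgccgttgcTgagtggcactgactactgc

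Reads A to D, chosen as the most frequent in SG and LZ, were found 0 times in PD and RS. The whole window held 117 reads in PD and RS against 1780 in SG and LZ, so 0 counts of single reads say little. Read A occurred 25 times in SG and 34 and 33 times in LZ, with its 5′ end at position 240 of the window, and read D began at the same position without a mismatch. Reads A, B, C, E and F had 2 mismatches to the window and read G had 1. Whether they came from related copies was not tested. Read E, with its 5′ end at position 16, occurred 0 times for SG, 0 and 2 times for LZ, 4 times for PD and 12 times for RS. Reads E and F have 5′ ends next to each other and otherwise overlap. Reads F and G were also found early, read F 6 times and read G 5 times in SG and LZ. These counts are not scaled to the unequal depth.

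As for MMERVK10C, the strands of the window stood in opposite order in L/Z and PD, whereas RLTR10C was mostly antisense on average at both. The complementary strand held 314 of 362 reads for SG (86.7%, 95% Wilson interval 82.9% to 89.9%), 598 of 684 (87.4%) and 628 of 734 (85.6%) for LZ, 15 of 52 for PD (28.8%, 18.3% to 42.3%) and 9 of 65 for RS (13.8%, 7.46% to 24.3%). The window received 27.2 RPM for SG, 22.8 and 42.0 RPM for LZ, 3.91 RPM for PD and 5.18 RPM for RS. Its total was thus much lower in PD and RS, where the table row of RLTR10C was not. Stricter matching kept the strand order, with 14.3% of only 7 PD reads on the complementary strand at 0 mismatches and 39.1% at up to 1 mismatch, and lowered the read numbers, since 205 of the 362 SG reads and 44 of the 65 RS reads had 2 mismatches.

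The 5′ ends lay in different places on each strand. Of the complementary reads, 92.4% for SG and 90.6% and 89.6% for LZ began at position 200 of the window or beyond. Of the written reads, 2.08% for SG, 5.81% and 12.3% for LZ, 51.4% for PD and 57.1% for RS began before position 50. Written reads had a mean length of 26.9 nt for SG, 27.4 and 27.2 nt for LZ, 28.5 nt for PD and 29.1 nt for RS. Complementary reads measured 26.6 nt in SG and 26.6 and 26.8 nt in LZ.

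**Figure D5:**
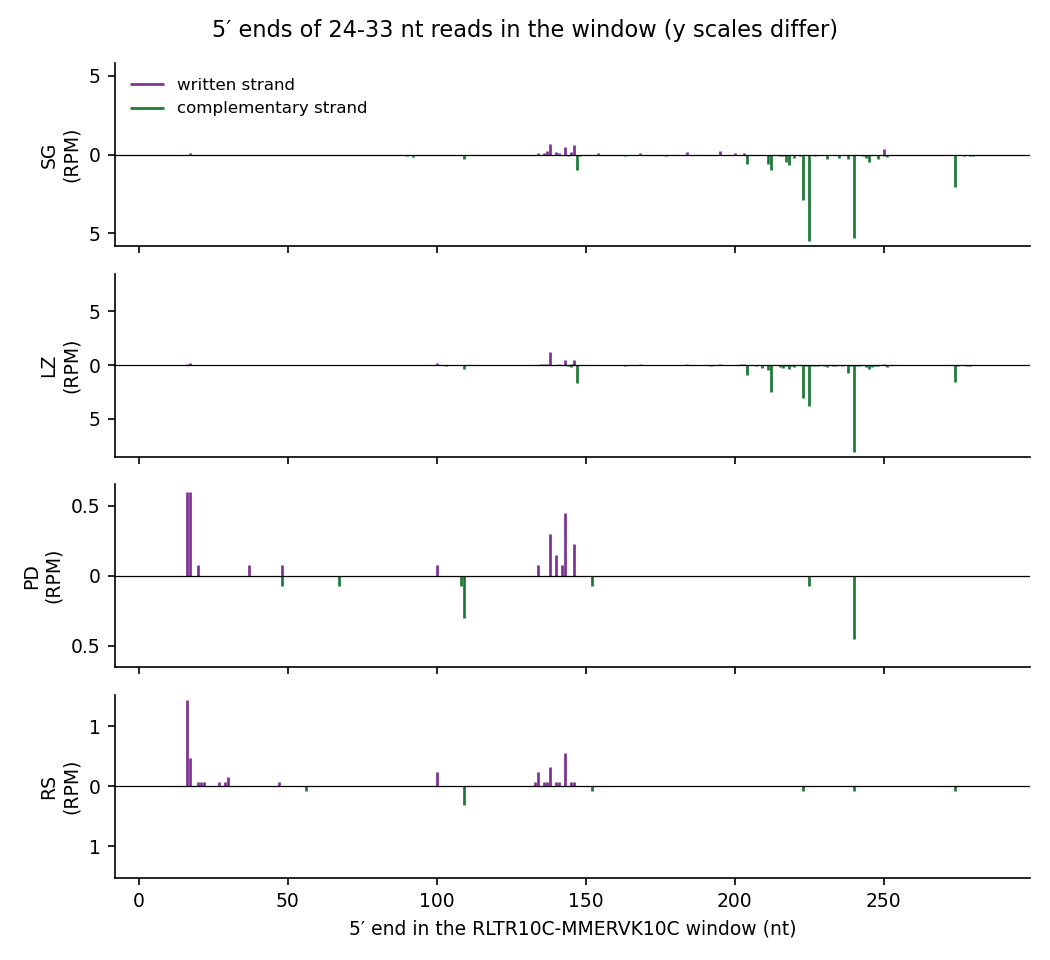
Reads of 24-33 nt in RPM (y axis, a scale for each stage, mean of the replicates for LZ) by the position of their 5′ end in the RLTR10C-MMERVK10C window (x axis), written strand upward and complementary strand downward. The complementary reads of SG and LZ gather beyond position 200, and 51.4% to 57.1% of the written reads of PD and RS begin before position 50.

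Most of these reads began with U, 85.9% for SG, 82.9% and 80.4% for LZ, 90.4% for PD and 89.2% for RS. A stood at position 10 in 44.8% of reads for SG, 48.8% and 60.1% for LZ, 63.5% for PD and 64.6% for RS. Read pairs on opposite strands whose 5′ ends overlapped by 10 nt numbered 156 for SG, 1056 and 1686 for LZ, 10 for PD and 20 for RS. In each of these 5 libraries, 10 nt gave the most pairs of all 20 overlaps from 1 to 20 nt. The mean over the other overlaps was 28.4 for SG, 74.9 and 211 for LZ, 0.79 for PD and 0.74 for RS.

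A single pair of positions, 138 on the written strand and 147 on the complementary strand, gave 117 of the 156 pairs in SG, and 992 of 1056 and 960 of 1686 in LZ. Pairs were counted from the positions of 5′ ends of reads with up to 2 mismatches, not from the complementarity of their bases. The most frequent reads of this pair with fully complementary first bases are shown, with the 10 paired bases in capitals. Read H was 9 of the 72 reads that began at position 138 in SG, LZ, PD and RS. Read I was 22 of the 85 at position 147.
read H, written strand, 9 reads in SG and LZ: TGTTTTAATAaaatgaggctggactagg
read I, complementary strand, 22 reads in SG and LZ: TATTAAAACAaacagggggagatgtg

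Both reads begin with U. They were chosen to pair over their first 10 bases, so the A at position 10 of each follows from the first U of the other. Without this pair of positions, 39 pairs were left in SG and 64 and 726 in LZ, fewer than the 128, 336 and 772 pairs of another overlap, so that the lead of the 10-nt overlap in SG and LZ rested on it. In PD and RS the complementary end of this pair had 0 reads. The window held only 15 and 9 complementary reads in these libraries. Their 10-nt pairs came mainly from 4 complementary reads at position 109 and 1 at position 152 in each, so the lead of 10 nt there rested on few reads.

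In the technical-replicate set the window was nearly empty. SG_T replicate 1 had 3 reads and SG_T replicate 2 had 0 of 1810805, which allows up to 1.66 RPM. LZ_T had 5 and 9 reads, 0.80 and 0.84 RPM, against 22.8 and 42.0 RPM in LZ. Strand, first base and overlap were not compared at these numbers.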

How the data were processed

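The members and lists were chosen with earlier results of these data known. Small RNA libraries (TruSeq Small RNA kit) were grouped by the stage and replicate in their titles. The authors trimmed adapters with cutadapt (version not stated), removed abundant noncoding RNAs and miRNAs, used SeqMap to align what was left to the consensus of each retrotransposon with up to 2 mismatches, split reads that matched more than 1, and deposited RPM per length class and strand. They also deposited read counts per distinct sequence. Each list is ordered by count. The SG list ends within the sequences read once, in a line without a count that was left out, so its total (13285425 reads), its 24-33 nt and miRNA shares and its window counts and RPM are those of an incomplete list. The deposited RPM were used as given.

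RPM of technical replicates were averaged. In R 4.3.3, limma 3.58.1 was run on log2(RPM + 1) of elements averaging 1 RPM or more, p-values were adjusted by Benjamini-Hochberg and called under 0.05, and the fit was tested on simulated data. Shares were compared by exact two-sided permutation tests in Python. miRNA reads were 19-25 nt reads lying exactly within a RefSeq hairpin (GRCm38.p6). Read equivalents are RPM times the total of the sequence list. Intervals and the floor of 3 reads cover counting error only. Named were MMERVK10C, its relatives, the 5 most similar LTR rows, and IAPEz-int, IAPA_MM and L1_Mm_orf2. RLTR10C, the 7 sequences that were sense early and antisense late and the reads of the window were named after their values were seen where this rule did not cover them. No 2 libraries were identical. Alternatives covered pseudocount, filter, scaling, technical replicates, samples left out and mismatches.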

Additional observations from a re-analysis of the deposited data

How the results depend on the processing

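The decrease of MMERVK10C in LZ_T against LZ kept its direction and passed the limma test on the total and on both strands under all 16 alternatives of each, with log2 changes of −4.86 to −3.17 for the total. The rise from SG_T to LZ_T depended on the settings, and the causes were not tested. For the total it missed the threshold with a pseudocount of 0.1 (log2 change 1.12) or 10 (0.56), with no filter (1.02), with technical replicate 1 only (0.68) or 2 only (1.42), and, as alternatives chosen after seeing the data, with technical replicates weighted by reads (1.0999) or scaling to miRNA reads (0.34). For sense reads it missed it with a pseudocount of 0.1 (1.16) or 10 (0.54), with no filter (1.05), with technical replicate 1 only (0.64) and with scaling to miRNA reads (0.36). Scaling to the summed retrotransposon RPM reversed the total (−1.57), sense (−1.51) and antisense (−0.98) changes, with the median of all tested elements at −1.50, −1.36 and −0.95. Leaving out 1 sample gave 0.68 to 1.36 for the total and 0.68 to 1.41 for sense reads, the lowest without SG_T replicate 2, and 15 to 21 elements called on the total, 15 without SG_T replicate 2. Elements called on the total numbered 25, or 13 with no filter. Scaling to the summed retrotransposon RPM turned these calls from 25 higher and 0 lower to 0 higher and 36 lower on the total, from 24 and 0 to 0 and 24 on the sense strand, and from 19 and 0 to 2 and 19 on the antisense strand. Elements called in LZ_T against LZ numbered 128, or 66 of the 71 with a mean of at least 10 RPM. Strand-wise counts, both directions summed, were 10 to 27 from SG_T to LZ_T and 46 to 143 in LZ_T against LZ. With a mean of at least 10 RPM, MMERVK10C was not among the elements tested for sense and antisense reads from SG_T to LZ_T.

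The antisense share difference between LZ_T and SG_T reversed with technical replicate 1 only (2.04 percentage points), and was −6.22 to 0.41 points when 1 sample was left out, 0.41 without LZ_T replicate 1. In the single-library set the LZ to SG ratio, in log2, was 0.25 scaled to 24-33 nt reads and 1.42 scaled to miRNA reads. That of PD to LZ was 0.34, −1.63 and 2.01 when scaled to the summed retrotransposon RPM, 24-33 nt reads and miRNA reads, and that of RS to PD was 0.47 scaled to the summed retrotransposon RPM and −1.28 scaled to miRNA reads. By strand, as alternatives chosen after seeing the data, the LZ to SG ratio was 1.24 for sense reads scaled to miRNA reads, and 1.62, 0.91 and 2.14 for antisense reads scaled to the summed retrotransposon RPM, 24-33 nt reads and miRNA reads. In the same order of scalings, that of PD to LZ was −1.26, −3.26 and 0.40 for sense reads and 1.89, −0.0084 and 3.58 for antisense reads. That of RS to PD was 0.53 for sense and 0.45 for antisense reads scaled to the summed retrotransposon RPM, and −1.22 and −1.30 scaled to miRNA reads. The window received 7.38 RPM in SG, 7.04 in LZ, 0.53 in PD and 0.40 in RS with 0 mismatches, and 11.8, 12.3, 1.73 and 1.67 with up to 1 mismatch. Its complementary share was 92.9% in SG, 93.2% in LZ and 14.3% in PD (of only 7 reads) with 0 mismatches, and 39.1% in PD and 28.6% in RS with up to 1 mismatch. Window values under stricter matching were not recomputed for SG_T and LZ_T, which held 0 to 9 reads each.

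Equal replicate numbers were not stated to mark a shared animal or day. The correlation of the deviations of same-numbered samples was 0.11 for LZ_T with SG_T and −0.19 for LZ_T with LZ. With the replicate number as a replicate block, the total of MMERVK10C rose by 1.02 in log2 from SG_T to LZ_T (limma, adjusted p = 0.00248) and 34 elements were called. In LZ_T against LZ 127 were called, and 131 with the numbers crossed. Depth limits the technical-replicate set, with the equivalent of 3 to 118 reads of MMERVK10C per library.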

Other observations

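RLTR10C also had sense reads of 19-23 nt, shorter than piRNAs, that were most frequent in round spermatids. They stood at 3.83 RPM in SG, 5.89 and 5.63 RPM in LZ, 14.8 RPM at PD and 62.6 RPM at RS, where the antisense strand had 5.41 RPM. In SG_T and LZ_T they were at 0.71 to 1.53 RPM. For the internal region MMERVK10C the same reads were at 8.18 and 6.39 RPM in SG_T and 28.2 and 17.1 RPM in LZ_T, where 24-33 nt sense reads stood at 15.2 and 11.2 RPM.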
